A study of Mus musculus with 18 samples.

Results

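A set of 9 genes of the postsynaptic density was followed through RNA sequencing of mouse cerebral cortex: the kinase subunits Camk2a and Camk2b, the calmodulin-binding protein gene Nrgn, and the scaffold genes Dlg4, Dlg2, Shank1, Shank2, Shank3 and Homer1. They were taken by symbol from the gene-level count table, where 9 of 54281 rows carried them. The set was chosen with earlier results of these data known. The study examined cortex development in a microcephaly mouse model. Each of its 9 groups held 2 libraries: wild-type R1 embryonic stem cells (mESC, a cultured pluripotent line), and cerebral cortex of male C57BL/6J mice, either wild type (WT) or labelled Mcph1KO (Mcph1 knockout), before birth at E17.5, at postnatal day 4 (P4), and at 2 later stages that the labels call A6w and A18w. The labels do not state how Mcph1 was disrupted or whether the libraries of a group came from separate animals, so p-values measure only the spread between these libraries.

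The postsynaptic density is a protein layer under the membrane of excitatory synapses. Scaffold proteins stack there: PSD-95 (Dlg4) and PSD-93 (Dlg2) bind glutamate receptors at the membrane, Shank proteins form a deeper platform, and Homer proteins tie Shank to metabotropic glutamate receptors and internal calcium stores. Calcium entering through NMDA receptors loads calmodulin, which activates CaMKII, the kinase built from Camk2a and Camk2b subunits that is needed for long-term potentiation, while neurogranin (Nrgn) holds calmodulin in reserve. In the forebrain this machinery is assembled largely after birth, as spines and excitatory synapses form.

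Levels are CPM, read counts divided by library size after TMM scaling between libraries, and differences are log2 fold changes ± SE from edgeR's quasi-likelihood test with Benjamini-Hochberg adjustment over all genes tested, called at an adjusted p under 0.05. All 9 genes passed the filter on low counts in the cortex fit (19199 genes) and in the wild-type fit (19466 genes). Library totals were 23531045 to 32041849 counts. Defining neuronal markers were present in all 16 cortex libraries, where the summed level of 8 pan-neuronal markers was 4272 to 7830 CPM, and none of the 8 was at 0. The cortex libraries also differed in markers of neighbouring tissue. The summed level of 5 thalamic markers was 254 CPM in P4 WT library 1 against 49.3 to 63.0 in the other P4 libraries. The summed level of 8 hippocampal markers was 544 CPM in A6w WT library 1 against 212 to 307 in the other A6w libraries. The summed level of 8 striatal markers was 2569 and 1952 CPM in the A18w libraries numbered 1 against 587 and 904 in those numbered 2. In bulk tissue, fewer cells of a type and less RNA per cell cannot be told apart.

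The first step, from E17.5 to P4, brought 8 of the 9 genes up, and 18.9% of all genes tested were called higher there. The second, from P4 to A6w, brought all 9 up, where 27.3% of all genes were called higher. From A6w to A18w none of the 9 was called, against 0.135% of all genes in either direction. The 4 libraries of a stage did not overlap those of the stage before for 7 genes at the first step, all higher (17.9% of all genes), for 8 at the second, all higher (25.8%), and for 1 at the third, lower (3.3%). The genes differed in size and timing of the rise: the mean level at A6w was 70.1 times that at E17.5 for Camk2a and 67.3 times for Nrgn, and 2.84 to 5.74 times for the other 7 genes.

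**Figure D1:**
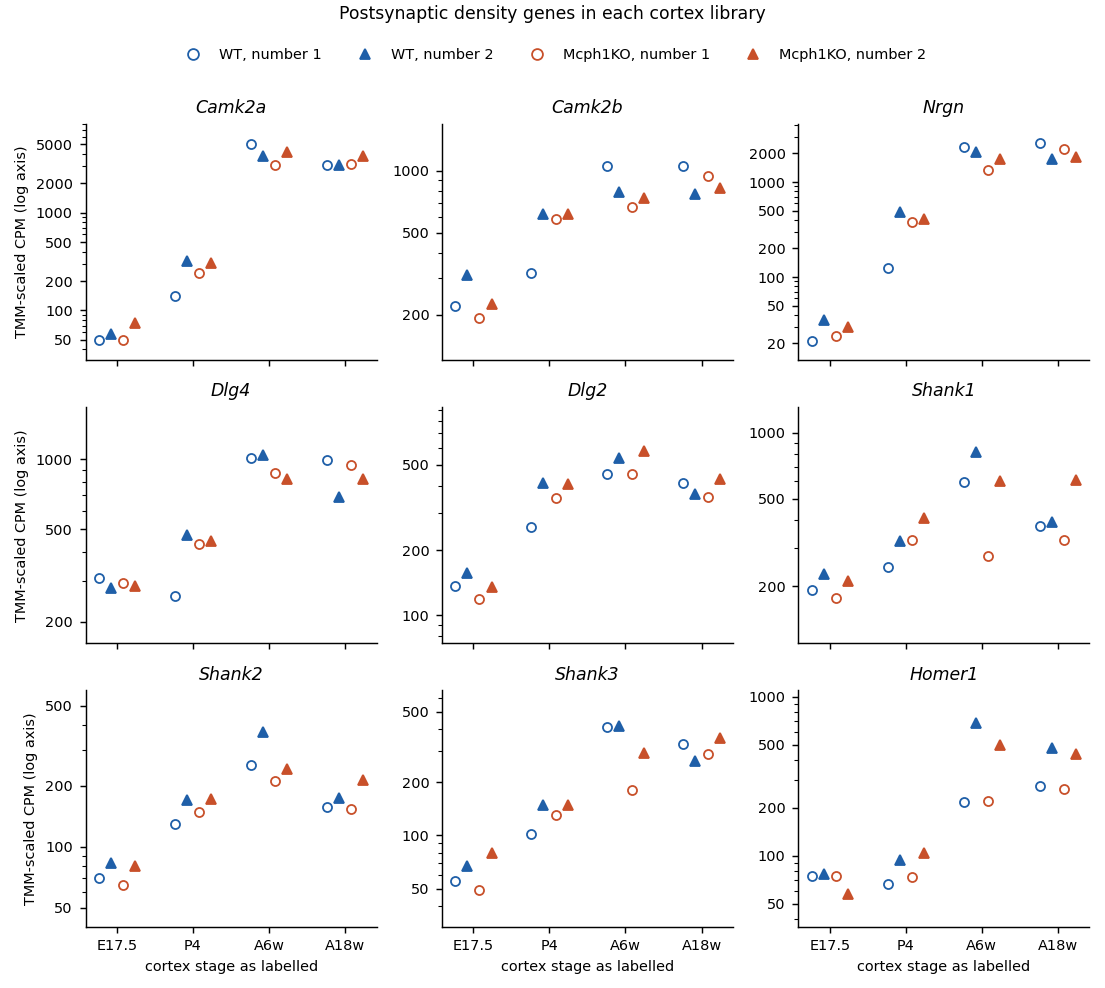
Level of each gene in each of the 16 cortex libraries, in TMM-scaled CPM on a log axis, by stage. Blue marks WT and orange the libraries labelled Mcph1KO, open circles libraries numbered 1 and filled triangles those numbered 2; Camk2a spans 49.7 to 5061 CPM and Dlg4 259 to 1046 CPM.

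Camk2a encodes the alpha subunit of CaMKII, the main subunit of the kinase in adult forebrain (chromosome 18, 60925618 to 60988152, GRCm38, forward strand). At E17.5 its level was 49.7 and 57.1 CPM in WT libraries 1 and 2 and 50.3 and 73.9 in the libraries labelled Mcph1KO 1 and 2. At P4 it was 139.6 and 323 CPM in WT libraries 1 and 2 and 243 and 308 in the libraries labelled Mcph1KO 1 and 2, and all 4 libraries lay above every E17.5 library, with WT library 1 the lowest. The rise was 2.13 ± 0.24 (adjusted p = 6.00e-05) on the log2 scale, a 4.38-fold difference. At A6w the level was 5061 and 3847 CPM in WT libraries 1 and 2 and 3069 and 4222 in the libraries labelled Mcph1KO 1 and 2, a rise of 4.0 ± 0.26 (adjusted p = 6.23e-08) or 15.96-fold, with no overlap. At A18w the values were 3068, 3093, 3132 and 3792 CPM (A18w values are given in the order WT 1, WT 2, Mcph1KO 1 and Mcph1KO 2), overlapping A6w, and the difference of -0.30 ± 0.23 (adjusted p = 0.777) was not called. Thus 34.8% of the log2 rise between E17.5 and A6w fell before P4 and the rest after it.

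Camk2b encodes the beta subunit, which binds actin and is prominent in early neurons (chromosome 11, 5969644 to 6066362, reverse strand). Its level at E17.5 was 219 and 312 CPM in WT libraries 1 and 2 and 192 and 224 in the libraries labelled Mcph1KO 1 and 2. At P4 it was 318 and 620.3 CPM in WT libraries 1 and 2 and 583 and 618 in the libraries labelled Mcph1KO 1 and 2, again without overlap and with WT library 1 well below the other 3. The step was 1.18 ± 0.20 (adjusted p = 0.00074). At A6w the level was 1053 and 785 CPM in WT libraries 1 and 2 and 669.6 and 742 in the libraries labelled Mcph1KO 1 and 2, and the further rise of 0.60 ± 0.20 (adjusted p = 0.0202) was the second smallest of the 9 genes, after Dlg2. It was not called when P4 WT library 1 was left out (0.40, adjusted p = 0.0674), nor without P4 Mcph1KO library 1, A6w WT library 1 or A6w Mcph1KO library 2 (0.49 to 0.58, adjusted p up to 0.0788). Values of 1058, 769.9, 940.2 and 826 CPM followed at A18w. Within the Mcph1KO libraries alone the step from P4 was 0.23 (adjusted p = 0.535), and within the WT libraries alone the step into P4 was 0.82 (adjusted p = 0.0594). Averaged over both labels, 66.2% of the log2 rise of Camk2b up to A6w fell before P4, against 34.8% for Camk2a. The labels differed in this split. Mean levels at E17.5, P4 and A6w were 266, 469 and 919 CPM in WT, and 208, 600.5 and 706 CPM in Mcph1KO. Most of the rise thus lay before P4 in the Mcph1KO libraries but not in the WT libraries.

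The ratio of Camk2a to Camk2b counts within a library needs no scaling between libraries. It was 0.183 to 0.330 at E17.5, 0.418 to 0.520 at P4, 4.58 to 5.69 at A6w and 2.90 to 4.59 at A18w, 4 libraries at each stage. The E17.5, P4 and A6w ranges did not overlap, and the A18w range reached just above the lowest A6w library. At A18w the ratio was 2.90 and 3.33 in the libraries numbered 1, against 4.02 and 4.59 in those numbered 2. Those numbered 1 had the high striatal marker sums given above, whose part in the ratio was not tested. From P4 to A6w the ratio rose 10.7-fold in these libraries (log2 difference 3.42, pooled SD 0.14). The exact two-sided permutation test of 4 against 4 libraries gave p = 0.0286, the smallest it allows, and 0.0714 after adjustment over the 15 ratio tests, and none of the 15 passed 0.05. Per kilobase of the longest protein-coding transcript, Camk2b stood at 58.9 ± 12.9 CPM (SD, n = 4) and Camk2a at 11.6 ± 2.27 at E17.5. At A6w Camk2a stood at 815 ± 167 CPM per kilobase and Camk2b at 202 ± 41.5, so the order of the subunits had switched, and their ranges did not overlap at either stage.

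**Figure D2:**
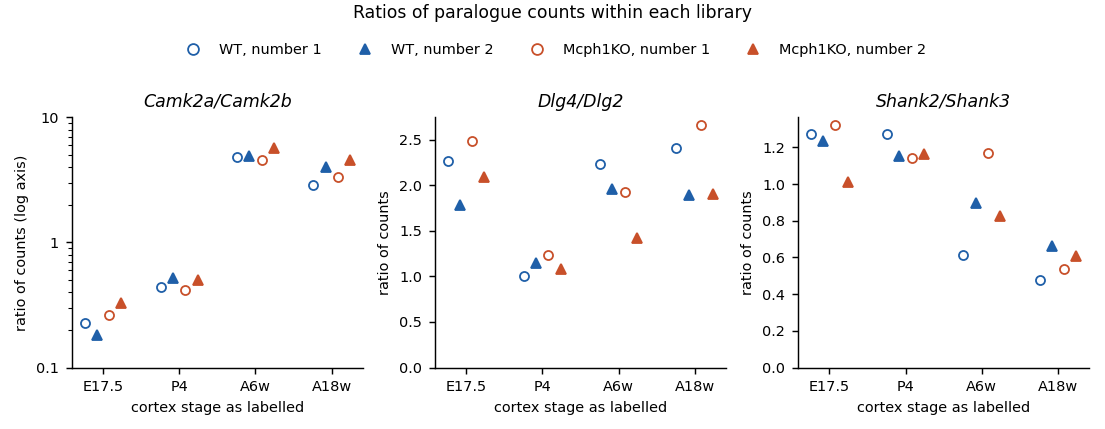
Ratio of counts of Camk2a to Camk2b (log axis), Dlg4 to Dlg2 and Shank2 to Shank3 within each of the 16 cortex libraries, by stage, with symbols for genotype label and library number. Camk2a/Camk2b goes from 0.183 to 0.330 at E17.5 to 4.58 to 5.69 at A6w, and Dlg4/Dlg2 is lowest at P4, at 1.00 to 1.24.

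Nrgn encodes neurogranin, a small postsynaptic protein of forebrain principal neurons that binds calmodulin when calcium is low (chromosome 9, 37544492 to 37552904, reverse strand). At E17.5 its level was 21.4 and 35.5 CPM in WT libraries 1 and 2 and 23.9 and 29.7 in the libraries labelled Mcph1KO 1 and 2. At P4 it was 125 and 486 CPM in WT libraries 1 and 2 and 377 and 406 in the libraries labelled Mcph1KO 1 and 2. No P4 library overlapped E17.5, and WT library 1 stood far below the other 3. The rise of 3.65 ± 0.35 (adjusted p = 3.23e-05), 12.5-fold, was the largest of the 9 genes at this step. At A6w the level was 2324 and 2049 CPM in WT libraries 1 and 2 and 1330.0 and 1732 in the libraries labelled Mcph1KO 1 and 2, a further rise of 2.40 ± 0.33 (adjusted p = 4.31e-05). The A18w values, 2558, 1752, 2248 and 1848 CPM, overlapped those of A6w. Per kilobase, Nrgn was the highest of the 9 genes from P4 on, with 240 ± 107 CPM at P4, 1279 ± 294 at A6w and 1446 ± 256 at A18w (SD, n = 4). At P4 its range of 86.0 to 335 CPM per kilobase overlapped that of Camk2b, 79.1 to 154, and at A6w its range of 915 to 1599 overlapped that of Camk2a, 618 to 1018. At A18w the ranges of Nrgn and Camk2a did not overlap.

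P4 WT library 1, the lowest P4 library for each of the 9 genes, was also the library with the high thalamic marker sum given above. Its choroid plexus marker sum was 318 CPM, against 5.49, 87.3 and 770 in the others. The part of this tissue in the low values was not tested. Without this library, the first step was 2.37 for Camk2a, 1.37 for Camk2b and 3.98 for Nrgn on the log2 scale, and the second step was 3.76, 0.40 and 2.07.

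Dlg4 encodes PSD-95, the most abundant scaffold of the mature density, which holds AMPA and NMDA receptors in place through stargazin-type partners and direct binding (chromosome 11, 70016942 to 70047522, forward strand). At E17.5 its level was 309 and 279.8 CPM in WT libraries 1 and 2 and 295 and 284 in the libraries labelled Mcph1KO 1 and 2. At P4 it was 259 and 472 CPM in WT libraries 1 and 2 and 433 and 444 in the libraries labelled Mcph1KO 1 and 2. WT library 1 lay below all 4 E17.5 libraries and the other 3 lay above them. The step of 0.46 ± 0.17 (adjusted p = 0.0483) was called only narrowly: it was lost on leaving out any library except P4 WT library 1, A18w WT library 1 or A18w WT library 2, with 0.20 (adjusted p = 0.281) without P4 WT library 2 and 0.64 without P4 WT library 1. It was not called within either genotype label alone (0.31 in WT, 0.60 in Mcph1KO). At A6w the level was 1010.0 and 1046 CPM in WT libraries 1 and 2 and 874 and 826 in the libraries labelled Mcph1KO 1 and 2, a rise of 1.22 ± 0.17 (adjusted p = 4.53e-05) with no overlap. At A18w it was 996, 688, 944 and 818 CPM. Most of the rise of Dlg4 therefore lay after P4, with 27.1% of its log2 rise before it.

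Dlg2 encodes PSD-93, the PSD-95 relative that can partly take its place (chromosome 7, 90476672 to 92449247, forward strand). At E17.5 its level was 136 and 157 CPM in WT libraries 1 and 2 and 118 and 136 in the libraries labelled Mcph1KO 1 and 2. At P4 it was 258 and 409.7 CPM in WT libraries 1 and 2 and 349.5 and 409 in the libraries labelled Mcph1KO 1 and 2, a rise of 1.38 ± 0.16 (adjusted p = 6.50e-05) with no overlap. At A6w it was 453 and 535 CPM in WT libraries 1 and 2 and 453 and 579 in the libraries labelled Mcph1KO 1 and 2, and this step of 0.51 ± 0.15 (adjusted p = 0.0131) was the smallest of the 9 genes. It missed the threshold without P4 WT library 1 (0.36, adjusted p = 0.0512), P4 Mcph1KO library 1 (0.45, adjusted p = 0.0538) or A6w Mcph1KO library 2 (0.42, adjusted p = 0.0570), and within either genotype label alone (0.57 in WT, 0.44 in Mcph1KO). At A18w the values were 414, 364, 354 and 428 CPM, all 4 below every A6w library, but the difference of -0.37 ± 0.15 (adjusted p = 0.49) was not called. Dlg2 had the largest share of its log2 rise before P4, 73.2%.

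The ratio of Dlg4 to Dlg2 counts followed from this difference in timing. It was 1.78 to 2.49 at E17.5, 1.00 to 1.24 at P4, 1.43 to 2.23 at A6w and 1.89 to 2.66 at A18w. The P4 libraries lay below all libraries of the stages on either side. The log2 difference was -0.94 into P4 and 0.74 out of it, each with an exact permutation p of 0.0286 and 0.0714 after adjustment.

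Shank1 encodes a Shank protein confined mainly to the central nervous system, where it enlarges mature spines (chromosome 7, 44310253 to 44360572, forward strand). Its level was 176 to 227 CPM at E17.5 and 244 to 409 CPM at P4. The step of 0.68 ± 0.24 (adjusted p = 0.0437) was called with all libraries and lost on leaving out any of 9 of the 16 libraries: either WT or either Mcph1KO library at E17.5, P4 WT library 2, either P4 Mcph1KO library, or either A18w WT library (0.56 to 0.75, adjusted p up to 0.142). Within 1 genotype label it was 0.43 in WT (adjusted p = 0.401) and 0.92 in Mcph1KO (adjusted p = 0.0798). At A6w its level was 598 and 816 CPM in WT libraries 1 and 2 and 274 and 600.5 in the libraries labelled Mcph1KO 1 and 2. The first Mcph1KO library lay inside the P4 range and the other 3 lay above it. The step was 0.79 ± 0.24 (adjusted p = 0.0141), which was lost without P4 WT library 1, P4 Mcph1KO library 1, A6w WT library 2 or A6w Mcph1KO library 2 (0.46 to 0.71, adjusted p up to 0.0927). Within the Mcph1KO libraries alone it was 0.25 (adjusted p = 0.582). The A18w libraries stood at 378, 392, 325 and 608 CPM, inside the A6w range.

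Shank2 encodes the Shank protein that appears earliest at new synapses in many brain regions (chromosome 7, 144001928 to 144424494, forward strand). Its level was 64.4 to 83.5 CPM at E17.5 and 129 to 172 CPM at P4, a rise of 1.05 ± 0.16 (adjusted p = 0.000362) with no overlap. At A6w it was 254 and 371 CPM in WT libraries 1 and 2 and 211 and 243 in the libraries labelled Mcph1KO 1 and 2, a rise of 0.78 ± 0.16 (adjusted p = 0.00098), again with no overlap. Within the Mcph1KO libraries alone this step was 0.50 and not called (adjusted p = 0.0912). At A18w the values were 158, 175, 154 and 214 CPM. Only A18w Mcph1KO library 2 reached into the A6w range, and it passed only the lowest A6w library. The difference of -0.61 ± 0.16 (adjusted p = 0.208), 1.52-fold lower, had the smallest adjusted p of the 9 genes at this step. Shank2 and Dlg2 were the 2 of the 9 genes with an unadjusted p under 0.05 here, where 1706 of all 19199 genes had one. DESeq2 called Shank2 lower (-0.60, adjusted p = 0.0357), as did edgeR without the filter on low counts (adjusted p = 0.00238), and over all its alternatives the adjusted p ran from 0.00238 to 1.0, the highest without both A18w libraries numbered 1 (-0.46) and within the Mcph1KO libraries alone (-0.30).

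Shank3 encodes the Shank protein whose loss causes Phelan-McDermid syndrome in humans (chromosome 15, 89499623 to 89560261, forward strand). Its level was 48.8 to 79.2 CPM at E17.5 and 101 to 148 CPM at P4, a rise of 1.07 ± 0.19 (adjusted p = 0.00113) with no overlap. At A6w it was 413 and 414 CPM in WT libraries 1 and 2 and 180.4 and 293 in the libraries labelled Mcph1KO 1 and 2. Here the first Mcph1KO library, which also held the lowest Shank1 and Shank2 levels of the stage, lay just above the P4 range. The step was 1.25 ± 0.20 (adjusted p = 0.000127). The A18w libraries, at 329, 264, 287 and 354 CPM, lay within the A6w range.

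Among the Shank genes the balance moved from Shank1 towards Shank3. The ratio of Shank1 to Shank3 counts was 2.68 to 3.61 at E17.5, 2.17 to 2.77 at P4, 1.45 to 2.05 at A6w and 1.13 to 1.72 at A18w. Of the neighbouring stages only P4 and A6w had separate ranges (log2 difference -0.50, exact permutation p = 0.0286, adjusted 0.0714). At A6w this ratio was 1.45 and 1.52 in the libraries numbered 1, against 1.97 and 2.05 in those numbered 2. At A18w it was 1.15 and 1.13 against 1.49 and 1.72. The A18w libraries numbered 1 also had the high striatal marker sums given above. The part of the library number or of striatal tissue in the ratio was not tested. The ratio of Shank2 to Shank3 was 1.01 to 1.32 at E17.5 and 0.479 to 0.663 at A18w. Per kilobase of the longest protein-coding transcript, Shank1 stood at 43.3 ± 12.7, Shank3 at 41.9 ± 5.51 and Shank2 at 19.5 ± 3.07 CPM at A18w (SD, n = 4), and the ranges of Shank1 and Shank3 overlapped. By this length the Shank genes held the last 3 of the 9 places at A6w and A18w. Per kilobase of all exons joined, Shank1 and Shank3 lay above Homer1 and Dlg2 at both stages.

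Homer1 encodes long Homer proteins, which cross-link the density, and the short activity-induced form Homer1a, which breaks these links (chromosome 13, 93299635 to 93405129, forward strand). The gene-level counts hold all forms together. At E17.5 its level was 74.6 and 76.5 CPM in WT libraries 1 and 2 and 74.1 and 57.3 in the libraries labelled Mcph1KO 1 and 2. At P4 it was 66.0 and 93.6 CPM in WT libraries 1 and 2 and 73.0 and 104 in the libraries labelled Mcph1KO 1 and 2, overlapping E17.5, and the difference of 0.26 ± 0.34 (adjusted p = 0.588) was not called, the only one of the 9 at this step. At A6w it was 218 and 687 CPM in WT libraries 1 and 2 and 221 and 495 in the libraries labelled Mcph1KO 1 and 2, a rise of 2.26 ± 0.36 (adjusted p = 0.000148) or 4.78-fold with no overlap. At A18w the values were 275, 474, 263 and 437 CPM. Only 10.2% of its log2 rise up to A6w lay before P4, the smallest share of the 9.

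Homer1 also separated the libraries by their number. At A6w both libraries numbered 2 exceeded both numbered 1, by 1.41 on the log2 scale, and at A18w by 0.76, irrespective of genotype label. Within number 1 the step from E17.5 to P4 was -0.10 and within number 2 it was 0.58. The step from P4 to A6w was 1.66 within number 1 and 2.56 within number 2, so it was a rise in both. The labels do not say what the number stands for. Shank1 showed the same order, with number 2 above number 1 by 0.79 at A6w and 0.48 at A18w. With Dlg2, 3 of the 9 genes were higher in both libraries numbered 2 at A6w, where 17.9% of all genes were. The hippocampal marker sum at A6w was 544 and 307 CPM in the libraries numbered 1 against 236 and 212 in those numbered 2. At E17.5, 6 of the 9 genes were higher in both libraries numbered 2 (27.8% of all genes) and 1, Dlg4, was lower (35.3%). At that stage the thalamic marker sum was 239 and 176 CPM in the libraries numbered 2 against 55.8 and 57.2 in those numbered 1. The progenitor marker sum was 1040 and 1123 CPM in number 2 against 1404 and 1595 in number 1. At P4, 8 of the 9 were higher in both libraries numbered 2 than in both numbered 1, where 19.1% of all genes were; only Shank1 overlapped. At A18w 3 genes were higher in number 2 (Homer1, Shank1 and Shank2; 22.0% of all genes) and 3 lower (Dlg4, Nrgn and Camk2b; 24.9% of all genes), and there the striatal marker sums also differed between the numbers. The hippocampal marker sum at A18w was 180 and 203 CPM in number 1 against 313 and 315 in number 2, the reverse of the A6w order. The part of the library number, of thalamic, hippocampal or striatal tissue or of progenitors in these differences was not tested.

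**Figure D3:**
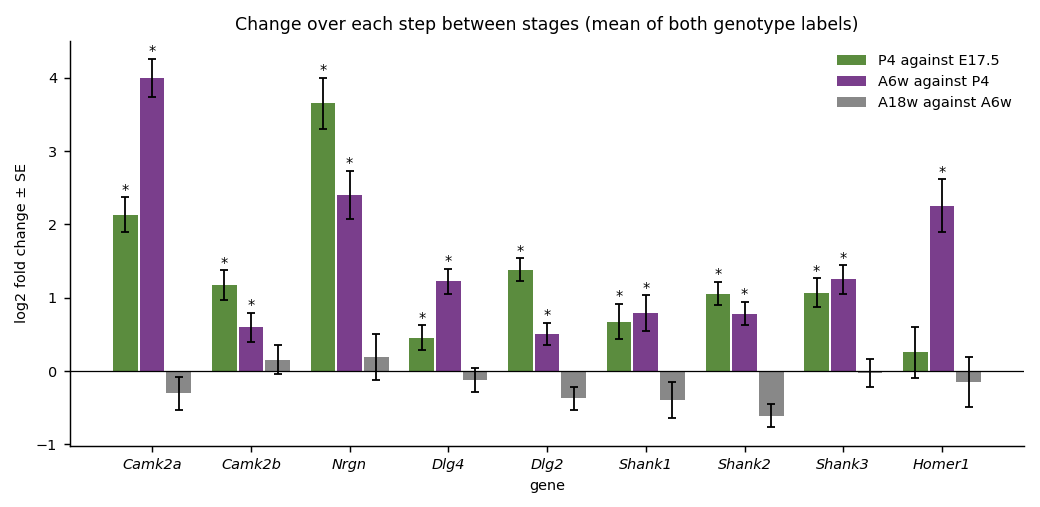
Log2 fold change of each gene over each step between stages, averaged over both genotype labels, from edgeR. Bars start at 0, lines are ± SE and stars mark an adjusted p under 0.05; Camk2a rises most from P4 to A6w (4.0), Nrgn most from E17.5 to P4 (3.65), and no bar from A6w to A18w carries a star.

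The sequence before annotated start sites differed between these genes. RefSeq windows of 250 bases before a start site (GRCm38.p6) were held for 6 of the 9 genes, 11 windows in all, and 5 of the 11 overlapped no exon annotated in GENCODE M21. All 5 are shown. They belong to Homer1 (both start sites), Dlg2, Camk2b and Shank3. The Homer1, Dlg2 and Camk2b windows lie inside the gene spans given above, so their start sites are internal to those spans. The Shank3 window lies just before its gene. Averaged over both labels, Homer1 had the least of its rise before P4. By the same average Dlg2 and Camk2b had most of theirs before P4, and Shank3 was between. Both strands were searched for TGACGT, the core of the cyclic AMP response element. They were also searched for the full palindrome of that element, TGACGTCA, in which the core lies. A GC box was searched for by the letters GGGCGG. The last of the motifs was the TATA box, searched for by the letters TATAAA. Capitals mark matches, and each sequence runs 5′ to 3′ on the gene's strand. They lie at chr13:93303507-93303756 (+), chr13:93307784-93308033 (+), chr7:92062144-92062393 (+), chr11:6065749-6065998 (-) and chr15:89499358-89499607 (+).
Homer1 start 1: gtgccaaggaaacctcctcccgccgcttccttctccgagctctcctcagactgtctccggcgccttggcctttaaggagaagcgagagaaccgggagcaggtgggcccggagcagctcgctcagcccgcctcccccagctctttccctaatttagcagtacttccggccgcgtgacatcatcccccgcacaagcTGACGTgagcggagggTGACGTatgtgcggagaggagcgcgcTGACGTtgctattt
Homer1 start 2: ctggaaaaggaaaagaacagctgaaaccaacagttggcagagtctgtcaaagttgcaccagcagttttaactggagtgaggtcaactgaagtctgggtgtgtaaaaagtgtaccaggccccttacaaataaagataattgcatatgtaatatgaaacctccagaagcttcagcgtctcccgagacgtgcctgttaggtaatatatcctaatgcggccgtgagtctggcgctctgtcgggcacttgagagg
Dlg2 start 2: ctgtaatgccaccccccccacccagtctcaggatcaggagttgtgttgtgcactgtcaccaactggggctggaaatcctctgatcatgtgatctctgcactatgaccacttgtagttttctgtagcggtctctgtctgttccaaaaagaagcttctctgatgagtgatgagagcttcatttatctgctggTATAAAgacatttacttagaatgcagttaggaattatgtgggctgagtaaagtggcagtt
Camk2b: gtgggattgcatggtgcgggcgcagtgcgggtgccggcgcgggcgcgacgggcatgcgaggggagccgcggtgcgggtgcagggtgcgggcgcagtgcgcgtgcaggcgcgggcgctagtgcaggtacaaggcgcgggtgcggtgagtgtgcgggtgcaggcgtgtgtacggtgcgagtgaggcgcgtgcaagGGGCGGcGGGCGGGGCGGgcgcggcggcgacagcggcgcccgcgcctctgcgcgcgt
Shank3: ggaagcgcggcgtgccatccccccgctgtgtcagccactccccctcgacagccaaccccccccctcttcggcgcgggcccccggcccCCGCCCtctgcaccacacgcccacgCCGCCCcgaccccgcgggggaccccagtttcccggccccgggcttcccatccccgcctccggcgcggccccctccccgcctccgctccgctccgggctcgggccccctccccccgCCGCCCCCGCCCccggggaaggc
The first Homer1 window held 3 matches to TGACGT. Of 32851 promoter windows of this length, 6.47% held at least 1 and 0.152% held 3 or more. The motifs were chosen after the sequences had been read, so this share and those below describe the windows and are no test of them. The second Homer1 window held none of the motifs. The Camk2b window held 3 matches to GGGCGG and the Shank3 window 4, where 32.7% of all windows held at least 1 and 8.47% held 3 or more. The GC content was 62.4% and 46.8% in the Homer1 windows, 45.6% in Dlg2, 78.4% in Camk2b and 82.4% in Shank3, against a median of 52.4%. TATAAA, present in 12.4% of all windows, had 1 match in the Dlg2 window and none in the other 4. TGACGTCA, present in 1.55%, was in none of the 5.

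The genes were next compared over libraries. Across the 16 cortex libraries, which share the stage differences, the genes whose log2 CPM followed Camk2a most closely were Anks1b, itself a postsynaptic density scaffold, Nrip3 and Snph, each with Pearson r = 0.996 among 13682 candidate genes. For Dlg4 they were Fam131b (0.989), Slc8a2 (0.987), a sodium-calcium exchanger, and Dact2 (0.987). For Shank2 they were Ppm1h (0.983), Gpr17 (0.973), a receptor of immature oligodendrocytes, and Ntrk2 (0.971), the receptor of brain-derived neurotrophic factor. For Homer1 they were R3hdm2 (0.981), Adar (0.977), which edits adenosine in RNA, and Dlc1 (0.975). When each library was taken as its deviation from the stage mean, Camk2b and Nrgn still ran together (r = 0.93), as did Shank1 and Shank2 (0.86) and Shank1 and Shank3 (0.84). Homer1 ran with Shank2 (0.70), Shank1 (0.68) and Dlg2 (0.54), and less with Shank3 (0.30), Camk2a (0.19) and Nrgn (0.15). It did not run with Camk2b (-0.03) or Dlg4 (0.03). These correlations describe 16 libraries and carry no test.

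Other genes of the same machinery were read from lists. Of 23 other scaffold and adaptor genes, 13 were higher and 2 lower at P4 than at E17.5 (median log2 change 0.57, against 0.03 for all genes), and 21 were higher and none lower at A6w than at P4 (median 1.63, against -0.06). The rises at the first step included Dlgap1, whose protein joins PSD-95 to Shank (0.96 ± 0.13), and Synpo, a protein of the spine apparatus (1.55 ± 0.23). The 2 that fell were Homer3 (-1.55 ± 0.38) and Dlg1, which encodes SAP97 (-0.37 ± 0.13), named after their values were seen. At the second step Dlg1 rose by 2.31 ± 0.13 and Kalrn, an exchange factor of dendritic spines, by 2.15 ± 0.13. Homer3 did not pass the test there (-0.40 ± 0.38, adjusted p = 0.383).

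Of 18 other calmodulin, kinase and phosphatase genes, all 18 were higher at the first step (median 0.86) and 15 at the second (median 1.36), with none lower. Camk2n1, which encodes an inhibitor of CaMKII, rose by 1.11 ± 0.14 and then by 3.86 ± 0.16, from 97.8 ± 14.5 CPM at E17.5 to 211 ± 26.5 at P4 and 3078 ± 402 at A6w (SD, n = 4). The 3 genes without a call at the second step were Camk2d (0.52 ± 0.32), Ppp3cb (-0.03 ± 0.12) and Camk2n2 (0.02 ± 0.24), named after their values were seen.

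All 8 glutamate receptor genes were higher at the first step (median 0.90) and 6 of 8 at the second (median 0.74). Grin2a, the NMDA receptor subunit that gains weight in maturing synapses, rose by 2.32 ± 0.35 and then 3.9 ± 0.35, and Grin1, the obligatory NMDA receptor subunit, by 1.92 ± 0.23 and then 1.66 ± 0.22. Grin2b (0.33 ± 0.21) and Grm5 (-0.17 ± 0.16), named after their values were seen, were the 2 without a call at the second step. Of 11 postsynaptic adhesion genes, 8 were higher at the first step, then 7 higher and 2 lower (Lrrc4b and Adgrb3, named after their values were seen). Of 7 genes of inhibitory postsynapses, 4 were higher at each step and none lower. Gphn, the gephyrin gene, rose by 0.63 ± 0.10 at the first step and was at -0.05 ± 0.10 at the second. From A6w to A18w none of the 67 genes of these 5 lists was called by edgeR. Of the 67, 13 had an unadjusted p under 0.05, as did 1706 of all 19199 genes tested. DESeq2 called 1 of the 67, the scaffold gene Lrrc7, named after its values were seen.

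Markers of whole cell classes moved over the same steps. Of 8 progenitor markers, 7 were lower at P4 and all 8 lower at A6w. Of 8 oligodendrocyte markers, 4 were higher at P4 and 7 at A6w (median 5.14). Of 7 astrocyte markers, 5 were higher at each step and none lower. Of 7 excitatory neuron markers, 1 was higher and 4 lower at each step (medians -0.69 and -0.55). The one that rose was at both steps Slc17a7, which encodes a vesicular glutamate transporter of cortical neurons (1.58 ± 0.32 and 3.47 ± 0.34). Of 8 pan-neuronal markers, 6 were higher at P4. At A6w 4 were higher, among them Snap25 (3.34 ± 0.16), and 3 lower, among them Tubb3 (-2.51 ± 0.15). The part of cell composition in the rise of the 9 genes was not tested.

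The genotype comparison starts with the targeted gene. Mcph1 lay at 8.36 to 12.5 CPM in the 8 WT libraries and at 11.7 to 16.7 CPM in the 8 labelled Mcph1KO, and at A6w the ranges were 9.02 to 9.66 and 16.2 to 16.7 CPM. Averaged over stages it was higher by 0.44 ± 0.09 in the libraries labelled Mcph1KO (edgeR adjusted p = 0.368). Gene-level counts do not show whether a deleted part is missing, so the genotypes are given here as labelled.

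None of the 9 genes differed between the labels by edgeR's test, either at any of the 4 stages or averaged over them. No gene of all tested was called at a single stage (0.0%) and 0.0521% were called in the average. The averaged log2 differences ran from -0.12 for Homer1 to 0.09 for Camk2a. Their 95% intervals were narrowest for Dlg2 (-0.22 to 0.25) and widest for Homer1 (-0.65 to 0.40). All 9 intervals included 0 and lay between -0.65 and 0.43. DESeq2 called none of the 9 in these comparisons. At an unadjusted p under 0.05 edgeR had 0 of the 9 at E17.5, P4, A18w and in the average, and 1, Shank3, at A6w. Of all 19199 genes, 303, 718 and 326 had one at E17.5, P4 and A18w, 425 in the average and 763 at A6w. At A6w DESeq2 had 2 of the 9 and the replicate block 3, where 773 and 1280 of all genes had one.

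At A6w 8 of the 9 genes had a difference below 0, all except Dlg2. For 5 of them both libraries labelled Mcph1KO lay below both WT libraries: Camk2b, Nrgn, Dlg4, Shank2 and Shank3, where 15.4% of all genes did. The median difference of the 9 genes was -0.38, against 0.0005 for all genes. Other lists lay below 0 there too, with no gene of them called: 23 of 23 other scaffold genes (median -0.24), 8 of 8 oligodendrocyte markers (-0.34), 6 of 8 hippocampal markers (-1.58) and 6 of 8 striatal markers (-0.82). Of 8 pan-neuronal markers 5 lay above 0 (0.03). The part of these tissues and cells in the differences of the 9 genes was not tested. Shank3 stood at 413, 414, 180.4 and 293 CPM in WT 1, WT 2, Mcph1KO 1 and Mcph1KO 2. Its difference was -0.80 ± 0.27 (unadjusted p = 0.0115, adjusted p = 1.0 by edgeR). It was called only when no filter on low counts was applied (adjusted p = 0.0135), and in the other alternatives its adjusted p was not under 0.05. The first Mcph1KO library weighed in this: without it the differences were -0.49 for Shank3 and -0.24 for Shank1, and with it -0.80 and -0.69. Without the second Mcph1KO library they were -1.19 and -1.36, and neither was called.

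At the other stages few genes separated by label. At E17.5 Dlg2 and Homer1 were lower in both libraries labelled Mcph1KO and none of the 9 was higher. Of all genes 10.3% were lower and 9.83% higher in this way. At P4 Shank1 alone separated, higher in both (29.6% of all genes separated in either direction), and at A18w Camk2a was higher in both (10.4%). All 9 genes had a difference above 0 at P4 (median 0.25, against 0.0038 for all genes), as did 18 of 23 other scaffold genes (0.16), none of them called. At E17.5 and A18w 2 and 6 of the 9 did. P4 WT library 1 was the lowest P4 library for each of the 9. Its part in the P4 differences, and in the label differences of the step from P4 to A6w below, was not tested. The test of whether the label difference varied over the stages called none of the 9 (0.0% of all genes), with the smallest unadjusted p for Shank3 (0.0802), none under 0.05, and none called by DESeq2. With the replicate block 2 of the 9 had an unadjusted p under 0.05, as did 1004 of all 19199 genes, and none of the 9 was called. Taken step by step, the label difference in the step from P4 to A6w was -0.96 ± 0.39 for Shank3 (unadjusted p = 0.0273) and -1.07 ± 0.48 for Shank1 (unadjusted p = 0.0454), each with an edgeR adjusted p of 0.918. In the step from A6w to A18w it was 0.92 ± 0.38 for Shank3 (unadjusted p = 0.0332, edgeR adjusted p = 1.0).

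**Figure D4:**
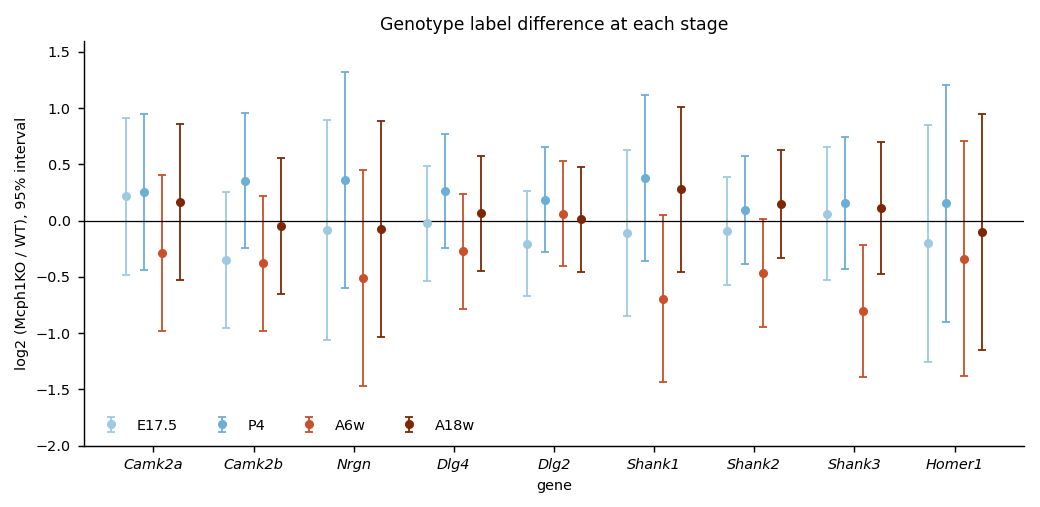
Log2 difference between libraries labelled Mcph1KO and WT for each gene at each stage, with 95% intervals from edgeR. The A6w points lie below 0 for 8 of the 9 genes, and the P4 points above 0 for all 9. Every interval except that of Shank3 at A6w (-1.39 to -0.21) includes 0.

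Stem cells provided a level outside the nervous system. They were set against WT cortex at E17.5 in a fit that held the 10 WT libraries only. Pluripotency markers summed to 7089 and 6262 CPM in the stem cell libraries, here by total counts without TMM scaling. All 9 genes were lower in stem cells, as were 35.3% of all genes tested. Dlg2 had 0 and 2 counts in the stem cell libraries and 4641 and 4449 at E17.5, a ratio that was 4083-fold lower with a counting interval of 1130 to 33720. Shank1 had 82 and 34 counts against 6548 and 6410, a log2 difference of -6.34 ± 0.44 (adjusted p = 6.42e-07). Shank2 had 36 and 12 counts against 2400 and 2361, with -6.17 ± 0.45 (adjusted p = 1.02e-06). Dlg4 had 229 and 204 counts against 10539 and 7913, with -4.95 ± 0.35 (adjusted p = 7.74e-07). These 4 scaffold genes had the largest differences of the 9.

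The kinase genes and Nrgn were lower by smaller amounts. Camk2a had 334 and 180 counts against 1696 and 1615, with -2.22 ± 0.42 (adjusted p = 0.000902), Camk2b was at -3.52 ± 0.45 (adjusted p = 5.23e-05) and Nrgn at -3.02 ± 0.62 (adjusted p = 0.00142). Shank3 was at -3.12 ± 0.30 (adjusted p = 6.14e-06). Homer1 had the smallest difference, with 601 and 676 counts against 2545 and 2163 and -1.43 ± 0.46 (adjusted p = 0.0174). That call was lost without either stem cell library or E17.5 WT library 2 (-1.42 to -1.45, adjusted p up to 0.0693). Counting intervals cover counting error only, as they pool the libraries of a group, scale by total counts and leave out the spread between libraries. Reads were not marked by molecular identifiers as far as the labels say, so copies of a molecule are counted as separate reads.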

How the data were processed

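The authors deposited estimated counts for each gene. Per the submitters' processing notes, the tools were FastQC, Trimmomatic 0.39 and Salmon 1.4.0, and the build was GRCm38.p6. They were whole numbers for 54281 genes in 18 libraries, so rounding changed nothing. Salmon shares reads among transcripts that match them, so values of genes with similar sequence rest on that estimate, and the step from transcripts to genes is not given in the sources used here. Per the labels' protocols, tissue homogenate was divided between DNA and RNA extraction, libraries were made with an NEBNext Ultra kit, and an Illumina HiSeq instrument was used.

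Gene IDs were named from GENCODE M21, with the version dropped. The 16 cortex libraries were fitted in edgeR 4.0.16 (R 4.3.3) with filterByExpr (minimum count 10), TMM scaling, 1 mean per stage and genotype label, and Benjamini-Hochberg adjustment over 19199 genes. Stem cells were tested over 19466 genes in a fit that held the 10 WT libraries only. Ratios of counts within a library were compared with exact two-sided permutation tests (scipy 1.17.1). Log2 CPM for correlations used a prior count of 2. Total counts of 23531045 to 32041849 per library set the counting precision. Each stage and genotype label has 2 libraries, which is the main limit on precision. Libraries of a group differed beyond sampling noise, so none was counted as a copy.

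The 9 genes, the other lists and the tests were chosen with earlier results of these data known, and the promoter motifs after the sequences had been read. All 9 genes are named. From each other list, up to 4 genes per step are named, taking called genes in order of adjusted p, and genes in order of mean CPM at steps without a call; others are stated as named after their values were seen. Some genes within this rule are not reported here. Genes most like Camk2a, Dlg4, Shank2 and Homer1 are the 3 with the highest Pearson correlation among tested genes with a mean CPM of at least 1, leaving out the 9 genes and names of clones and gene models.

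Tests of the 9 genes were recomputed with DESeq2 1.42.0, with median-of-ratios size factors in edgeR, without the low-count filter, with all 18 libraries in 1 fit, with the replicate number as a block, and without each library in turn. Steps between stages were also taken within each genotype label, and label differences at single stages and the stem cell comparison with only the 4 libraries compared. Ratios were recomputed within each label and without each library, and the other postsynaptic lists with DESeq2 only. Chosen after the data were seen were fits without the E17.5 pair, or the A18w pair, of libraries numbered 1, and exon-union lengths in place of the longest coding transcript. The methods were tested on simulated data.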

Additional observations from a re-analysis of the deposited data

Results flagged for a closer look

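In 4 of 56 sets of 4 libraries (each gene's CPM and each ratio at each stage), 1 library stood apart from the other 3 by more than the limit for 4 values, which chance passes in about 1 of 20 sets. The Camk2a level of A18w Mcph1KO library 2 was 3792 CPM, against 3068 to 3132 CPM in the other A18w libraries. For Camk2b, P4 WT library 1 stood at 318 CPM, below the 583 to 620.3 CPM of the other P4 libraries. For Homer1, E17.5 Mcph1KO library 2 stood at 57.3 CPM, below 74.1 to 76.5 CPM in the others. The ratio of Shank2 to Shank3 counts in P4 WT library 1 was 1.27, above 1.14 to 1.16 in the others. P4 WT library 1 thus appears in 2 of the 4 sets.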

How the results depend on the processing

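The 9 genes kept their direction in the steps into P4 and A6w and against stem cells under all the alternatives listed above. The split by library number is not among them, and there Homer1 went into P4 by -0.10 within number 1 and 0.58 within number 2. The number called in the step into P4 was 6 to 8 when single libraries were left out and 5 within WT libraries alone. In the step into A6w it was 6 to 9 without single libraries and 5 within Mcph1KO libraries alone, and against stem cells 8 to 9. In the step into A18w 1 gene, Shank2, was called by DESeq2, by edgeR with no filter on low counts and with the replicate block, and 0 when single libraries were left out. With no filter, 1 gene was called at A6w between the genotype labels and 1 in the test of the label difference over stages, and leaving out single libraries gave 0 in each genotype comparison. Over all genes, the step into P4 had 7062 calls by edgeR, 3502 within WT, 3594 within Mcph1KO and 2898 without both E17.5 libraries numbered 1. The step into A18w had 26 calls, and 235 by DESeq2, 598 with no filter, 246 with the block, 5 within WT, 0 within Mcph1KO libraries, 0 without both A18w libraries numbered 1 and 2 to 93 without single libraries. DESeq2 called 11, 13, 29 and 3 genes between the labels at E17.5, P4, A6w and A18w, no filter gave 105, 225, 262 and 107, and the block 7, 5, 4 and 4. The label average had 10 calls by edgeR, 31 by DESeq2, 124 with no filter and 16 with the block. The test over stages had 0, 8, 466 and 9. The causes were not tested.

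Differences near 0 changed sign, none of them called. Within WT libraries the step into A18w was -0.0077 for Camk2b and -0.0208 for Nrgn, and without both A18w libraries numbered 1 it was -0.0163 and -0.0265, with 0.17 for Homer1. Within Mcph1KO libraries it was 0.0514 for Dlg4, 0.0931 for Shank1 and 0.44 for Shank3. Without single libraries it ran from -0.27 to 0.0016 for Dlg4, -0.18 to 0.17 for Shank3 and -0.46 to 0.37 for Homer1. The label difference at A6w ran from -0.12 to 0.23 for Dlg2 and -1.03 to 0.72 for Homer1. The averaged label difference ran from -0.0332 to 0.27 for Camk2a, -0.21 to 0.0329 for Camk2b, -0.25 to 0.24 for Nrgn, -0.0848 to 0.13 for Dlg4, -0.0615 to 0.11 for Dlg2, -0.21 to 0.0761 for Shank1 and -0.30 to 0.14 for Homer1. Without both A18w libraries numbered 1 it was 0.0505 for Shank1.

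Replicate numbers are shared between the labels, but deviations of same-numbered libraries correlated at 0.478, 0.209, 0.0829 and 0.295 at E17.5, P4, A6w and A18w, so not every pair passed 0.1 and the number was not taken as a pairing. With the replicate block 8, 9 and 1 of the 9 genes were called in the steps into P4, A6w and A18w, 0 between the labels and 9 against stem cells. The averaged label difference of Nrgn became 0.0091 with the block. Per-length orders held on both length bases for the top place at each stage, while other places moved, the last at E17.5 included (Shank2 by transcript, Homer1 by joined exons). Within 1 genotype label the ratio changes moved by more than the spread between libraries for Camk2a/Camk2b into P4 (1.23 within WT, 0.63 within Mcph1KO), Dlg4/Dlg2 into A6w (0.96 and 0.52) and Shank1/Shank2 into P4 (-0.53 and -0.24), with the same direction.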
